A study of Homo sapiens with 12 samples.

Results

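The genes described here are the proteins of the mitochondrial ribosome, taken by symbol: every counted gene named MRPL or MRPS followed by a number and, where present, the letter A or B. The rule found 77 of the 19923 genes in the count tables, 49 with an MRPL symbol (large subunit) and 28 with an MRPS symbol (small subunit), spread over 21 chromosomes. RNA was sequenced from NGP and SK-N-BE2, both established lines of human neuroblastoma, a childhood tumour of the sympathetic nervous system, which the labels give as MYCN-amplified and of wild-type genotype. Cells were kept for 6 days with STM2457, an inhibitor of the RNA methyltransferase METTL3, or with DMSO as the control: 12 µM STM2457 in SK-N-BE2 and 1 µM in NGP. Each of the 4 groups had 3 replicates, and because the lines received different doses and were sequenced in different runs, the line, its dose and its run cannot be told apart. Nothing in the labels says that replicates came from separate cultures, so p-values measure only the spread between these samples, which may be technical.

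The mitochondrial ribosome translates the few messages of mitochondrial DNA, all of which code for subunits of the respiratory chain and ATP synthase. Its ribosomal RNAs are transcribed inside the organelle, but every one of its proteins is encoded in the nucleus, translated in the cytosol and imported. A part of these proteins descends from bacterial ribosomal proteins, and the rest was added during the evolution of mitochondria.

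Libraries held between 47242379 and 58159937 counted reads, and 76 of the 77 members passed the filter on low counts in every comparison. The exception was MRPL53, which had at most 0.0199 CPM (counts scaled to a fixed library total, on the TMM scale) in any library. A count of 0 allows up to 0.0516 to 0.0635 CPM at these depths, a limit that covers counting error only. Of the exon length of MRPL53, 99.4% is shared with other genes, and 72.8% with genes that were counted, so its level could not be measured. Of 7 sympathetic neuroblast markers, 7 were above 1 CPM in both SK-N-BE2 groups and 6 in both NGP groups, where TH averaged 0.514 CPM with DMSO. The summed level of 12 markers of blood, endothelial, epithelial and fibroblast cells was higher with STM2457. In SK-N-BE2 the sum was 177 to 191 CPM against 102 to 118 CPM, and in NGP 256 to 282 CPM against 54.8 to 65.6 CPM. Single markers did not all follow the sum: at an adjusted p under 0.05, 5 of 9 tested in SK-N-BE2 rose and 2 fell. Only 5 of the markers passed the filter on low counts in NGP, where 3 rose and 0 fell. The sum does not show which markers carry it. ALB was at 0 in SK-N-BE2 with STM2457 and in NGP with DMSO, and PTPRC, CD3E and PECAM1 were at 0 in both NGP groups. The part of these markers in the results below was not tested.

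In this bulk RNA, fewer cells of a type and less RNA per cell cannot be told apart. The members took up a small and steady part of the reads. In SK-N-BE2 their summed share was 0.421% ± 0.0478 with DMSO and 0.423% ± 0.00104 with STM2457, and in NGP 0.439% ± 0.0506 and 0.439% ± 0.00462 (SD, n = 3 each), so the means moved by less than the spread of the DMSO libraries. The libraries with STM2457 lay closer together: the median coefficient of variation of a member was 4.57% in SK-N-BE2 and 4.95% in NGP, against 13.7% and 19.8% with DMSO.

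Per kilobase of exon, the median member stood at 21.0 CPM in SK-N-BE2 and 21.3 CPM in NGP with DMSO, against 4.36 and 4.30 CPM for all genes tested. MRPS21, a small protein of the small subunit with a bacterial homologue, was the highest by the mean of the 4 group means per kilobase, with DMSO at 67.7 CPM per kilobase in NGP and 99.6 in SK-N-BE2. MRPS34, a small-subunit protein specific to mitochondria, came next in that order with 74.5 and 83.7, then MRPL51 of the large subunit with 47.2 and 71.2. The lowest tested members by the same mean were MRPS24, at 0.320 and 0.313 CPM per kilobase, and MRPL46, at 0.734 and 0.981. Shared sequence limits several of these levels: 31.5% of the exon length of MRPS34 is shared with EME2 and 27.6% of MRPL51 with NCAPD2. By the annotation used for counting, 23.2% of MRPS24 is shared with the readthrough gene URGCP-MRPS24. In all, 29 of the 77 members share over 10% of their exon length with another gene, by the annotation used for counting or by a later one. A named pseudogene that can take or give reads exists for 35 members. The values of all these members are uncertain.

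In SK-N-BE2 more members fell than rose with STM2457, and in NGP the calls were split between rises and falls. By edgeR's quasi-likelihood test at an adjusted p under 0.05, 28 of 76 members were called in SK-N-BE2 (36.8%), 9 higher and 19 lower. Of all genes tested 54.7% were called, 26.9% higher and 27.8% lower. The median log2 fold change was -0.08 over the members and -0.02 over all genes, and the median absolute log2 fold change was 0.19 against 0.37. In NGP, 18 of 76 members were called (23.7%), 10 higher and 8 lower. Of all genes tested 41.7% were called, 19.4% higher and 22.2% lower. There the median was 0.04 over the members against -0.03 over all genes, and the median absolute value 0.23 against 0.39. A call with an absolute log2 fold change over 1 was made for 1 member in SK-N-BE2, MRPL40, where 12.9% of genes met that rule, and for 2 in NGP, MRPS6 and MRPS24, where 14.0% did.

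The NGP count rests on which libraries enter, and it moved most with DMSO replicate 1. In DMSO replicate 1 of NGP, 65 of 76 members stood above both other DMSO libraries, with a median deviation of 0.42 on the log2 scale. In the same library the cytosolic ribosomal proteins deviated by 0.72, nuclear genes of the respiratory chain by 0.61 and the shortest genes (the lowest 10% by exon length) by 0.37, and the deviation correlated with log2 exon length across genes (r = -0.48). Without it, 41 members were called in NGP, 32 higher and 9 lower, where 57.3% of all genes were called, and the median was 0.19. Without DMSO replicate 2 of NGP, 6 were called higher and 12 lower (38.7% of all genes), and the median was -0.08. The members called numbered 11 without DMSO replicate 3 (31.6% of all genes), 9 without STM2457 replicate 1 (27.7%) and 11 without STM2457 replicate 3 (28.4%). In SK-N-BE2, DMSO replicate 1 lay below the other DMSO libraries (median deviation -0.29) and replicate 2 above them (0.23). Without replicate 1, 8 members were called higher and 29 lower, where 55.3% of all genes were called. Without replicate 2, 15 were called higher and 12 lower, where 53.8% of all genes were called. The excess of falls in SK-N-BE2 thus also rests on which DMSO libraries enter. The part of exon length and of these libraries in the results was not tested beyond these values.

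**Figure D1:**
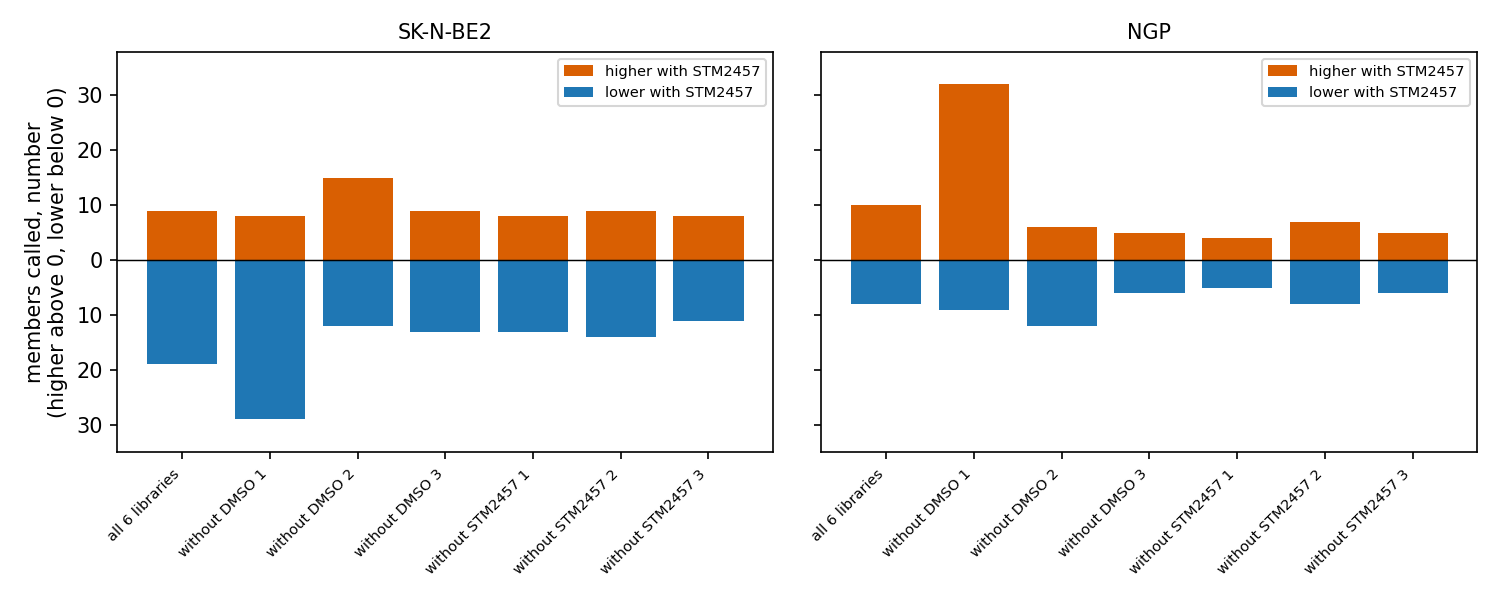
Number of members called with STM2457 against DMSO (vertical axis, bars above 0 for higher and below 0 for lower) with all 6 libraries of a line and with each library left out (horizontal axis), in SK-N-BE2 (left) and NGP (right). In NGP the count of rises goes from 10 with all libraries to 32 without DMSO replicate 1 and to 4 without STM2457 replicate 1.

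The medians of the large and small subunit lay close together in each line. In SK-N-BE2, 6 of 48 large-subunit members were called higher and 14 lower (median -0.08), against 3 higher and 5 lower of 28 in the small subunit (median -0.07). In NGP, 7 were called higher and 3 lower in the large subunit (median 0.05), against 3 higher and 5 lower in the small subunit (median 0.02). For all genes tested, 26.9% were called higher and 27.8% lower in SK-N-BE2 (median -0.02), and 19.4% and 22.2% in NGP (median -0.03). Without DMSO replicate 1 of NGP, 20 were called higher and 3 lower in the large subunit (median 0.20), and 12 higher and 6 lower in the small subunit (median 0.11). Without DMSO replicate 2 of NGP, the large subunit had 5 higher and 7 lower (median -0.07) and the small subunit 1 higher and 5 lower (median -0.09). Without DMSO replicate 2 of SK-N-BE2, the large subunit had 9 higher and 7 lower and the small subunit 6 higher and 5 lower. Over all genes, the share called in these fits was 57.3%, 38.7% and 53.8% in turn. Large minus small, the medians differed by 0.02 in NGP and by -0.01 in SK-N-BE2, less than the spread of that difference between replicates. The ratio of large-subunit to small-subunit reads was 1.71 ± 0.0482 with DMSO and 1.66 ± 0.0119 with STM2457 in SK-N-BE2, where the libraries overlapped. In NGP it was 1.60 ± 0.0443 with DMSO and 1.66 ± 0.0117 with STM2457 (SD, n = 3 each), and the lowest library with STM2457 (1.6557) lay above the highest with DMSO (1.6486). Structures place MRPS30 and MRPS18A in the large subunit despite their symbols, and MRPS36 is no longer counted as a ribosomal protein. None of these was called in either line: for SK-N-BE2 and NGP in turn, the log2 fold changes were -0.12 and -0.23 for MRPS30, -0.19 and 0.21 for MRPS18A, and -0.13 and -0.06 for MRPS36. With them moved or left out, the subunit medians differed by -0.0014 in NGP and by -0.06 in SK-N-BE2.

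Members with a bacterial homologue were called higher 8 times and lower 12 times of 45 in SK-N-BE2. The same members were called 7 and 3 times in NGP. Of the 31 tested members specific to mitochondria, 3 were called higher and 5 lower in NGP, with 1 and 7 in SK-N-BE2. Among the parts of the large subunit, the central protuberance, which contacts the small subunit and the transfer RNAs, had 1 of 8 members higher and 2 lower in SK-N-BE2, with 1 of 8 lower for NGP. In the stalk, which recruits translation factors, 2 of 3 proteins were lower in SK-N-BE2 and 1 in NGP. Around the exit tunnel, through which new proteins leave toward the inner membrane, 2 of 7 were lower in SK-N-BE2 and 1 higher in NGP. These groups are too small to be set against one another. As a background to their counts, the SK-N-BE2 fit called 26.9% of tested genes higher and 27.8% lower. The fit for NGP called 19.4% of tested genes higher, with 22.2% lower.

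**Figure D2:**
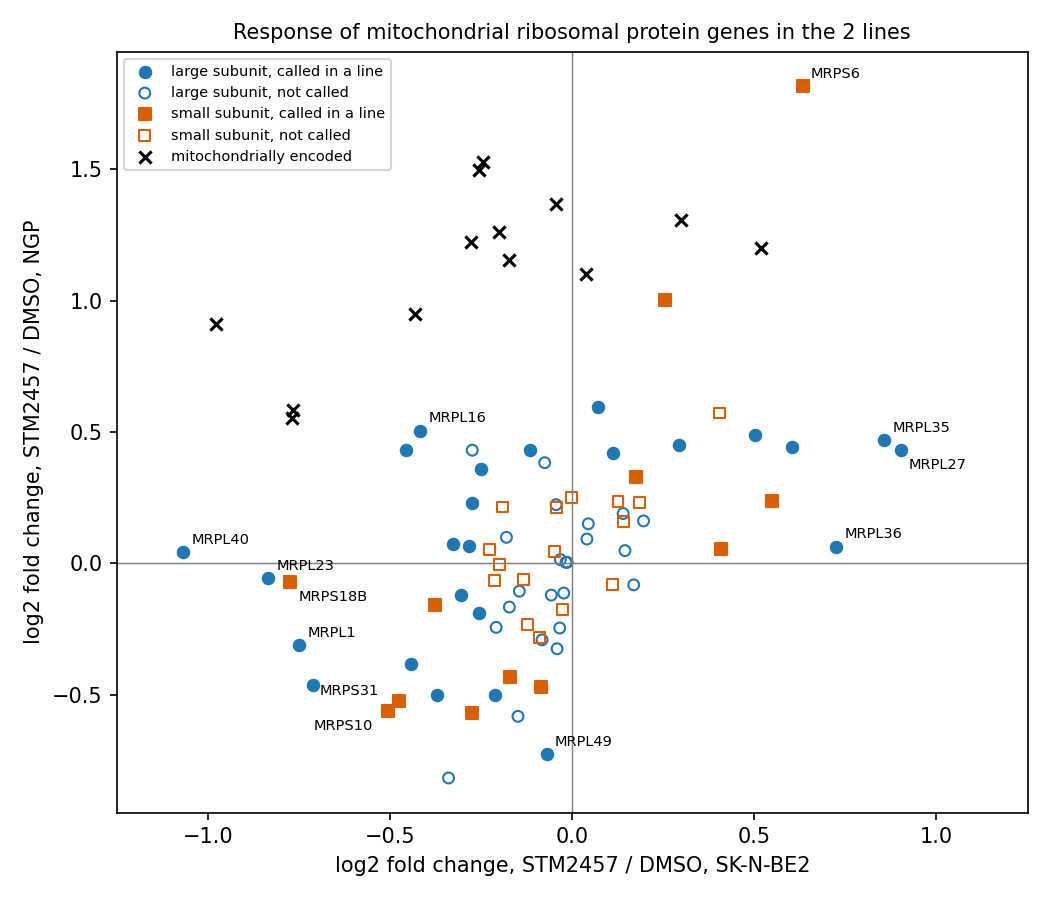
Log2 fold change with STM2457 in SK-N-BE2 (horizontal axis) and in NGP (vertical axis) for the 76 tested members, circles for the large and squares for the small subunit, filled where called in a line, and for the 13 mitochondrially encoded genes (crosses). The crosses all lie above 0.55 in NGP, while most members lie between -0.5 and 0.5 there.

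Across the 76 members the responses of the lines correlated with Pearson's r = 0.50 and Spearman's rho = 0.52, against r = 0.41 over all genes, and 71.1% of members had the same sign in both lines against 64.7% of all genes. These are descriptions across genes, which share libraries. Without MRPS6 the members' r was 0.46. Called in both lines were 9 members (26.3% of all genes tested in both were), 7 of them in the same direction (21.3%) and 2 in opposite directions (4.96%), while 39 members were called in neither.

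MRPS6 (chr21:34073224-34143034, plus strand, GRCh38 as in the deposited files), a small-subunit protein with a bacterial homologue, had the largest change of the 76 tested members in NGP. In SK-N-BE2 its level was 23.4, 28.7 and 22.4 CPM with DMSO and 40.2, 34.8 and 43.5 CPM with STM2457. In NGP it was 17.7, 11.2 and 14.4 CPM with DMSO and 57.1, 39.7 and 55.6 CPM with STM2457. Every STM2457 library stood above every DMSO library of its line, and NGP, lower at the start, ended higher. The log2 fold change was 1.82 ± 0.20 (SE) in NGP (adjusted p = 0.00025, edgeR's quasi-likelihood test) and 0.63 ± 0.12 in SK-N-BE2 (adjusted p = 0.00047). SLC5A3, a myo-inositol transporter gene whose single coding exon lies within the MRPS6 locus on chromosome 21 and shares 6.20% of the exon length of MRPS6, rose as well, by 1.57 on the log2 scale in NGP (adjusted p = 0.00086) and 1.75 in SK-N-BE2 (adjusted p = 2.3e-08). It was chosen after its values were seen.

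MRPL35 (chr2:86199355-86213790, plus strand), a large-subunit protein with a bacterial homologue, was also higher in both lines. In SK-N-BE2 it stood at 36.1, 43.3 and 36.8 CPM with DMSO and 70.7, 73.0 and 72.0 CPM with STM2457. In NGP it stood at 22.6, 24.2 and 25.4 CPM with DMSO and 33.1, 32.5 and 34.2 CPM with STM2457. The groups were far apart in both lines, and DMSO replicate 1 of NGP, high for most members, was the lowest of its group here. Its log2 fold change was 0.47 ± 0.10 (SE) in NGP (adjusted p = 0.0071) and 0.86 ± 0.09 in SK-N-BE2 (adjusted p = 4.7e-06). MRPL9, a large-subunit protein, was called higher by 0.45 in NGP (adjusted p = 0.040) and 0.29 in SK-N-BE2 (adjusted p = 0.023). It shares 36.0% of its exon length with other genes, 15.2% with counted genes. The call was lost in 5 of 6 fits that left out 1 NGP library and in 3 of 6 that left out 1 SK-N-BE2 library (adjusted p up to 0.093 in SK-N-BE2).

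**Figure D3:**
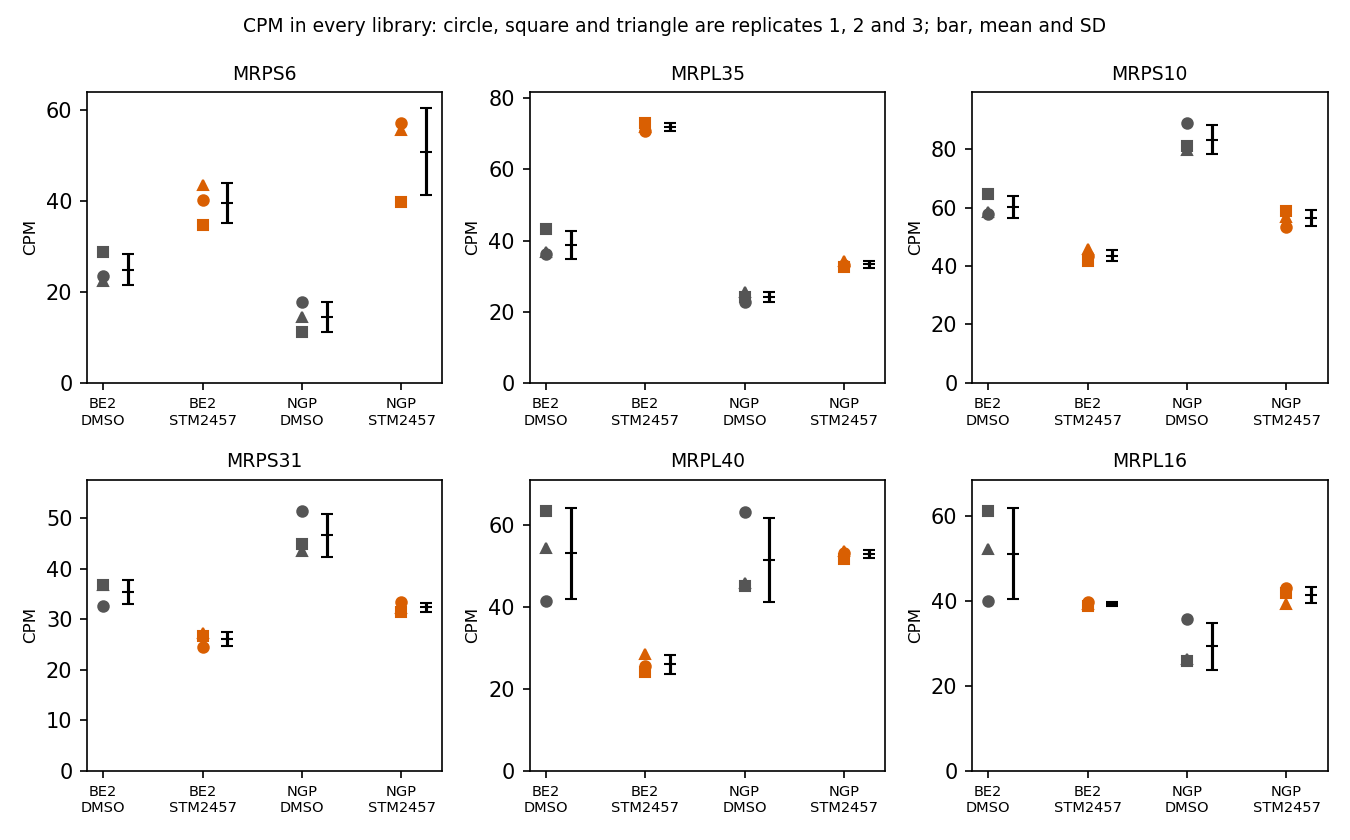
CPM (vertical axis) of 6 members in every library, by line and treatment (horizontal axis), with the mean and SD beside each group; grey is DMSO and orange STM2457, and BE2 stands for SK-N-BE2. MRPS6 and MRPL35 were higher with STM2457 in both lines, MRPS10 and MRPS31 lower in both, MRPL40 lower in SK-N-BE2, and MRPL16 lower in SK-N-BE2 but higher in NGP.

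The 4 members that fell in both lines were 3 small-subunit proteins, MRPS10, MRPS31 and MRPS22, and MRPL10 of the stalk. MRPS10 (chr6:42206807-42217861, minus strand), whose bacterial homologue lies in the head of the small subunit, was in SK-N-BE2 at 57.8, 64.7 and 58.6 CPM with DMSO and 43.3, 41.8 and 45.7 CPM with STM2457. In NGP it was at 89.0, 81.3 and 79.7 CPM with DMSO and 53.4, 58.8 and 56.9 CPM with STM2457. No library crossed over, and the falls were of the same order, -0.56 ± 0.10 (SE) in NGP (adjusted p = 0.0024) and -0.51 ± 0.09 in SK-N-BE2 (adjusted p = 0.00024). MRPS31, specific to mitochondria, went from 35.4 ± 2.42 to 26.1 ± 1.44 CPM (SD, n = 3) in SK-N-BE2 and from 46.6 ± 4.23 to 32.4 ± 0.915 CPM in NGP, log2 fold changes of -0.48 and -0.52 (adjusted p = 0.00082 and 0.0052). MRPL10, which anchors the stalk, went from 75.6 ± 4.73 to 59.8 ± 2.29 CPM and from 115 ± 11.5 to 81.2 ± 2.37 CPM, changes of -0.37 and -0.50 (adjusted p = 0.0018 and 0.0052).

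MRPS22, a mitochondria-specific protein of the small subunit, had the tightest NGP libraries of these, 41.5, 42.0 and 42.5 CPM with DMSO against 27.8, 28.8 and 28.2 CPM with STM2457 (-0.57, adjusted p = 0.0019). In SK-N-BE2 it went from 31.2 ± 0.653 to 26.4 ± 1.32 CPM (-0.28, adjusted p = 0.017), a call lost without STM2457 replicate 1 or 3 (adjusted p up to 0.090). Of its exon length, 13.9% is shared with other genes, and 6.99% with counted genes. The difference between the lines did not pass the test for any of the 4 members that fell in both.

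The promoters of the members called in both lines in the same direction are shown so that their letters can be set beside their responses. They are from RefSeq (GRCh38.p14), 250 bases before to 50 after the start of the gene. The table held 68 of the 77 members and 14979 genes in all. MRPL10, MRPL13, MRPL15, MRPL2, MRPL21, MRPL23, MRPL35, MRPS28 and MRPS36 were not matched. Capitals mark CCGGAAG (a site of ETS factors such as GABPA), AAGATGGCG (YY1) or TGCGCA (a part of an NRF1 site). They were searched on both strands, so a site on the other strand reads as its reverse complement. The windows are chr21:34073328-34073627 (plus strand) for MRPS6, chr1:151763447-151763746 (minus strand) for MRPL9, chr6:42217812-42218111 (minus strand) for MRPS10, chr13:40771141-40771440 (minus strand) for MRPS31 and chr3:139343744-139344043 (plus strand) for MRPS22.
MRPS6: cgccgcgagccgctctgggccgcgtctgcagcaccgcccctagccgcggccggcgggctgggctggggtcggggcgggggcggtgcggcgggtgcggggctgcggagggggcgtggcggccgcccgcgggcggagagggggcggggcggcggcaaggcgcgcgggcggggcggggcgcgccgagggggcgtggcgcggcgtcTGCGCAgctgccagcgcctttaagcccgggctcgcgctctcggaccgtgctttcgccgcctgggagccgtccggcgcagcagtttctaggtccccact
MRPL9: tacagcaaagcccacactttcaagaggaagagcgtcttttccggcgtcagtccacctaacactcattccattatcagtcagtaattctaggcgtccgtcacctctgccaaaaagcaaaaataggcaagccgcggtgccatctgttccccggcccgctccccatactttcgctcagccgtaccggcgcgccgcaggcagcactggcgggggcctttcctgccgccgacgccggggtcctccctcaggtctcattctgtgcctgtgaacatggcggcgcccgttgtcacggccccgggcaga
MRPS10: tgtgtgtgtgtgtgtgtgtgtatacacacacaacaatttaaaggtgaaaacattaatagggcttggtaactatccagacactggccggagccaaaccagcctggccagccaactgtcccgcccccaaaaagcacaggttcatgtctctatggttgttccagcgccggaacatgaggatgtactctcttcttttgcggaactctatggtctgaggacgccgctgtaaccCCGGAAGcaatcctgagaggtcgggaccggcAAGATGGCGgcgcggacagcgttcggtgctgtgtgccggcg
MRPS31: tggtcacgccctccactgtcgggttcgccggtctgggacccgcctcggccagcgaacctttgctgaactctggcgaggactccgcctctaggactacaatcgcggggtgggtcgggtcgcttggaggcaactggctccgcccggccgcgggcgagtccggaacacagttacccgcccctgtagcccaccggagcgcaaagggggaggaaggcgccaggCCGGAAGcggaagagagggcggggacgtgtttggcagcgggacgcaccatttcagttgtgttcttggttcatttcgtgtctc
MRPS22: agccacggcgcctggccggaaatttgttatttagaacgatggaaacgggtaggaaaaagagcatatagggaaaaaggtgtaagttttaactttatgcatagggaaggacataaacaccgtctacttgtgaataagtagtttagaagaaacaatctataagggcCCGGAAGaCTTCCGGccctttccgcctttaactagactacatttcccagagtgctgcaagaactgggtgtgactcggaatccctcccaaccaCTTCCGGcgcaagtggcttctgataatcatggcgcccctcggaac

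All 3 of the printed promoters of members that fell hold the ETS letters, MRPS22 at 3 places, and MRPS10 also holds the YY1 letters. Neither printed promoter of a member that rose holds the ETS or YY1 letters, and MRPS6 holds the NRF1 letters TGCGCA. Over the members the ETS letters were found in 28 of 68 promoters (41.2%) against 14.4% of all promoters of the same length, and the YY1 letters in 13 of 68 (19.1%) against 2.82%. The NRF1 core was in 19.1% against 10.8%. The full NRF1 site, which contains the core, was in 1 of 68 (1.47%) against 1.74%. CACGTG, the E-box of MYC and MYCN, was in 7.35% against 8.86%. TATAAA stood in 2.94% of the members' promoters against 9.60%, CCAAT in 27.9% against 36.6%, TGACGTCA (CREB and ATF factors) in none against 2.64%, and the ATF4 letters TGATGNAA in 1 of 68 against 2.54%. These are matches of letters and not measured sites. With 5 printed promoters, and with MRPL10 and MRPL35 not matched, they cannot show whether the letters go with the direction of a response. That was not tested. Among the listed regulators of mitochondrial biogenesis, the RNA of YY1 fell by 0.36 in NGP (adjusted p = 0.011) and 0.45 in SK-N-BE2 (adjusted p = 0.00049), and that of GABPB1, the partner of GABPA, fell by 0.35 (adjusted p = 0.017) and by 0.66 (adjusted p = 8.8e-05). GABPA and NRF1 were called in neither line. Of the 10 regulators listed 4 were lower in SK-N-BE2 (40%, against 54.7% of all genes called) and 2 in NGP (20%, against 41.7%), none higher. The largest fall, -1.26 in SK-N-BE2, was that of another regulator. The part of these RNAs in the members' responses was not tested.

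In SK-N-BE2 the largest fall was that of MRPL40 (chr22:19431902-19436075, plus strand), a mitochondria-specific protein of the central protuberance. It was at 41.4, 63.5 and 54.5 CPM with DMSO and 25.5, 24.0 and 28.5 CPM with STM2457, a log2 fold change of -1.07 ± 0.14 (SE; adjusted p = 2.4e-05). In NGP it was at 63.4, 45.2 and 45.9 CPM with DMSO and 53.2, 51.8 and 53.7 CPM with STM2457, and did not pass the test (0.04, adjusted p = 0.84). The groups were apart in SK-N-BE2 and overlapped in NGP. The next falls in SK-N-BE2 were MRPL23, which lies at the exit tunnel (55.0 ± 14.6 to 31.7 ± 0.789 CPM, -0.83), and MRPS18B, 1 of the 3 human relatives of bacterial S18 (43.5 ± 3.60 to 26.0 ± 2.52 CPM, -0.78). MRPL1 of the L1 arm (47.5 ± 5.80 to 29.0 ± 0.0890 CPM, -0.75) and MRPL58, a peptidyl-tRNA hydrolase built into the ribosome (37.7 ± 9.61 to 23.6 ± 0.669 CPM, -0.71), followed. None of these was called in NGP.

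Apart from MRPL35 and MRPS6, the members that rose most in SK-N-BE2 were MRPL27, MRPL36 and MRPL14, all with bacterial homologues in the large subunit. MRPL27, of the central protuberance, was at 25.1, 37.0 and 27.3 CPM with DMSO and 56.2, 56.1 and 59.0 CPM with STM2457 (0.90 ± 0.13, adjusted p = 5.0e-05). MRPL36 went from 20.8 ± 3.65 to 35.2 ± 1.89 CPM (0.72, adjusted p = 0.00021) and MRPL14 from 50.5 ± 12.8 to 78.7 ± 4.76 CPM (0.60, adjusted p = 0.0028). In NGP their libraries overlapped between groups, with log2 fold changes of 0.43, 0.06 and 0.44, and none passed the test.

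In NGP, MRPL49, specific to mitochondria, fell from 96.5, 85.9 and 92.4 CPM to 58.7, 52.1 and 55.1 CPM (-0.73 ± 0.10, adjusted p = 0.00074), while SK-N-BE2 gave 63.6 ± 2.90 and 62.2 ± 1.43 CPM (-0.07, adjusted p = 0.47). Its exons share 11.6% of their length with SYVN1. MRPL15, a large-subunit protein, rose from 61.5, 43.0 and 53.2 CPM to 78.1, 79.6 and 80.2 CPM (0.60 ± 0.14, adjusted p = 0.0083). MRPS24, at 0.690 to 1.01 CPM with DMSO and 1.22 to 2.06 CPM with STM2457, was called higher by 1.00 (adjusted p = 0.029), and MRPL48, of the central protuberance, lower by 0.50 on the log2 scale (62.1 ± 16.5 to 43.7 ± 2.01 CPM, adjusted p = 0.048). The last 2 calls were each lost in 4 of 6 fits without 1 library. Of all 19 alternatives, MRPL48 lost the call in 10, among them upper-quartile factors and robust dispersion, and MRPS24 in 5.

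The test of the difference between the lines' responses called 12 of 76 members, 8 lower in SK-N-BE2 than in NGP and 4 higher. Of all genes tested 30.9% were called, 13.9% lower and 17.0% higher. The largest differences, SK-N-BE2 minus NGP, were MRPS6 (-1.17 ± 0.25 SE, adjusted p = 0.0026), MRPL40 (-1.10 ± 0.22, adjusted p = 0.0018), MRPL16 (-0.91 ± 0.21, adjusted p = 0.0049) and MRPL24 (-0.88 ± 0.20, adjusted p = 0.0046). MRPL16, a large-subunit protein with a bacterial homologue, was in SK-N-BE2 at 39.9, 61.3 and 52.3 CPM with DMSO and 39.8, 38.8 and 39.4 CPM with STM2457. In NGP it was at 35.7, 25.8 and 26.4 CPM with DMSO and 43.1, 41.9 and 39.4 CPM with STM2457. It was called in opposite directions, 0.51 in NGP (adjusted p = 0.022) and -0.42 in SK-N-BE2 (adjusted p = 0.013), and so was MRPL30 (0.36, adjusted p = 0.011, and -0.25, adjusted p = 0.034). The DMSO libraries of MRPL16 reached down to the STM2457 level in SK-N-BE2. In fits without 1 library MRPL16 lost the NGP call in 5 of 6 and the SK-N-BE2 call in 1 of 6, and MRPL30 lost the call in 3 of 6 in each line. MRPL24, at the exit tunnel, was lower in SK-N-BE2 (82.3 ± 11.3 to 61.5 ± 3.87 CPM) and in NGP went from 97.6 ± 23.4 to 132 ± 1.45 CPM (0.43, adjusted p = 0.054).

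In NGP, 42 of 76 members had a positive log2 fold change with STM2457, and 10 were called higher (19.4% of all genes were). The mitochondrially encoded genes were all higher there. Their share of reads was 3.64%, 3.05% and 2.78% with DMSO and 7.16%, 6.46% and 6.82% with STM2457, so the groups did not overlap, and the mean was 2.16 times as high (exact two-sided permutation test, p = 0.1, the smallest p that 3 against 3 allows). All 13 mitochondrially encoded genes were called higher in NGP, with log2 fold changes of 0.55 to 1.53 and a median of 1.20, against the members' median of 0.04. Of the 76 members, 4 had a log2 fold change above the lowest of these genes, and 1, MRPS6, above their median. The other members above the lowest were MRPS24, MRPL15 and MRPS28. MRPS28 did not pass the test and was chosen after its values were seen. Without DMSO replicate 1, 32 members were called higher, where 57.3% of all genes were called in either direction. The members' median of 0.19 in that fit was still below every mitochondrially encoded gene's value with all libraries.

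In SK-N-BE2 the share of mitochondrially encoded RNA was 11.3%, 8.43% and 9.98% with DMSO and 8.40%, 8.23% and 10.3% with STM2457, overlapping groups (exact two-sided permutation test, p = 0.5). There MT-CO2 was called higher and MT-ND1, MT-ND2, MT-ND3 and MT-CO3 lower. The libraries were selected for polyadenylated RNA, so these shares depend also on the tails of mitochondrial messages.

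**Figure D4:**
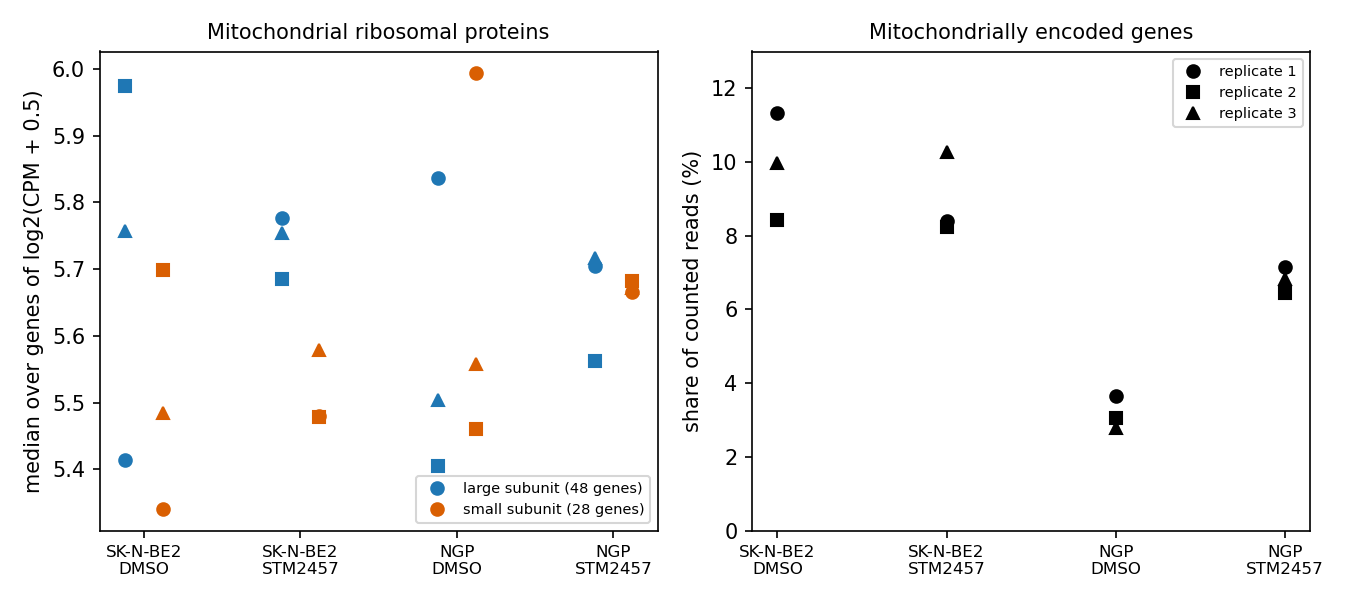
Left, the median over members of log2(CPM + 0.5) in each library (vertical axis) for the large and small subunit, by group (horizontal axis); right, the share of counted reads from the 13 mitochondrially encoded genes. Circles, squares and triangles are replicates 1, 2 and 3. In NGP the share goes from 2.78% to 3.64% with DMSO to 6.46% to 7.16% with STM2457, while the members' medians with STM2457 lie within the range of the DMSO libraries.

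Other genes of the same machinery followed no single direction. Unlabelled pairs of log2 fold changes in this paragraph are for SK-N-BE2 and then NGP. For scale, the SK-N-BE2 fit called 54.7% of its tested genes in either direction. The fit for NGP called 41.7%. Of 6 mitoribosomal proteins whose symbols fall outside the rule, DAP3, a GTP-binding protein of the small subunit, fell in both lines (-0.28, adjusted p = 0.026, and -0.55, adjusted p = 0.0037). PTCD3 was higher in SK-N-BE2 (0.21) and CHCHD1 in NGP (0.78), and AURKAIP1, GADD45GIP1 and MRPS18C were not called. Of 24 assembly factors, 7 were higher and 7 lower in SK-N-BE2 and 3 higher and 4 lower in NGP, with RBFA, a maturation factor of the small subunit, higher in both (0.55 and 1.00). Of 15 translation factors, 2 were lower in NGP, and 7 lower and 1 higher in SK-N-BE2. MTIF2, the initiation factor that brings in the first transfer RNA, fell in both (-0.91 and -0.55), and GFM1, an elongation factor, was lower in NGP (-0.43) but higher in SK-N-BE2 (0.30). Of 10 genes for transcription and upkeep of mitochondrial DNA, 2 were higher and 6 lower in SK-N-BE2 and 1 each in NGP. POLG, the mitochondrial DNA polymerase, was higher in both (0.55 and 0.74), and POLRMT, the mitochondrial RNA polymerase, was called lower in SK-N-BE2 (-0.52) only.

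Of 78 cytosolic ribosomal proteins tested in SK-N-BE2, 74 were lower and none higher (median -0.64), and in NGP 23 of 79 were lower and none higher (median -0.40). Of 76 nuclear genes of the respiratory chain, 6 were higher and 25 lower in SK-N-BE2 (median -0.13), and 14 higher and none lower in NGP (median 0.18). The members' medians were -0.08 and 0.04. Of all genes tested, 26.9% were called higher and 27.8% lower in SK-N-BE2, and 19.4% higher and 22.2% lower in NGP. In DMSO replicate 1 of NGP, the median deviation from the other DMSO libraries (log2 scale) was 0.72 for the cytosolic ribosomal proteins. It was 0.61 for the respiratory chain genes and 0.42 for the members. The NGP medians above include that library. No test of the difference between these lists was made.

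The members also differed between the lines before treatment. With DMSO, 48 of 76 were called between SK-N-BE2 and NGP, 22 higher and 26 lower in SK-N-BE2. Of all genes tested 71.1% were called, 35.7% higher and 35.4% lower. MRPL23 was the most raised in SK-N-BE2, at 41.0, 54.0 and 70.1 CPM against 23.8, 11.1 and 14.0 CPM in NGP (1.75 ± 0.25, adjusted p = 2.0e-05). It was followed by MRPL41 (1.20), MRPL55 (1.15) and MRPS12, whose bacterial homologue lies at the decoding centre (1.11). MRPS25, a small-subunit protein, was the lowest, at 24.8, 22.3 and 25.3 CPM against 67.5, 73.5 and 65.4 CPM (-1.51 ± 0.09, adjusted p = 1.7e-09). MRPL12 of the stalk (-0.81), MRPL27 (-0.80) and MRPL22 (-0.77) came next, and MRPL12, which shares 69.5% of its exon length with a counted gene, lost the call in 3 of 6 fits without 1 library: without DMSO replicate 1 of NGP (-0.42, adjusted p = 0.20) and without DMSO replicate 1 or 2 of SK-N-BE2. It also lost the call with the replicate block (adjusted p = 0.073) and by DESeq2 (adjusted p = 0.068). With STM2457, MRPL23 stood at 31.7 ± 0.789 CPM in SK-N-BE2 against 15.6 ± 3.11 CPM in NGP, and MRPL27 at 57.1 ± 1.66 against 69.5 ± 6.57 CPM.

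These differences went with those of neighbouring genes. Across the 76 members, the log2 difference between the lines correlated with the median difference of the other genes within 5 Mb (Pearson's r = 0.60, Spearman's rho = 0.50), a description across genes that share libraries and regions. The 55 neighbours of MRPS25 on chromosome 3 had a median of -1.21, and 87.3% of them were lower in SK-N-BE2. The 86 neighbours of MRPL23 on chromosome 11 had a median of 1.17, the 75 of MRPL55 on chromosome 1 a median of 0.75 and the 77 of MRPL27 on chromosome 17 a median of -0.66. Around MRPS12 the median was 0.09 over 198 genes and around MRPL22 -0.12 over 52 genes, so the size of a member's difference did not always have a counterpart nearby.

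**Figure D5:**
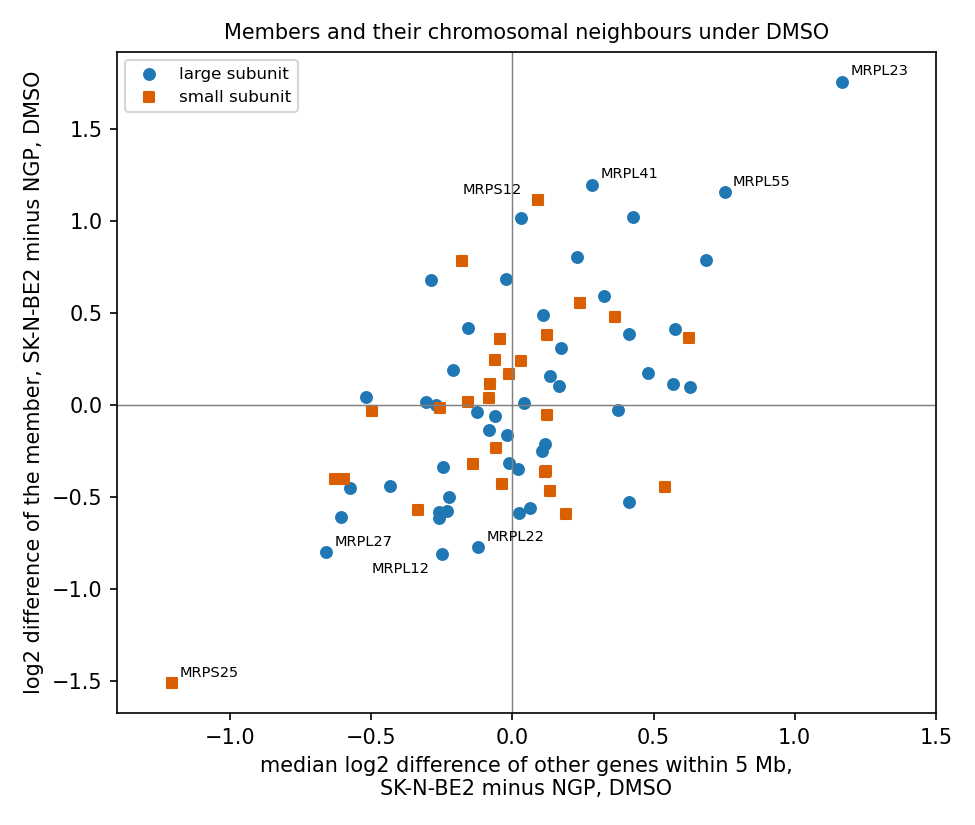
Log2 difference between SK-N-BE2 and NGP with DMSO for each of the 76 tested members (vertical axis) against the median of the same difference over the other tested genes within 5 Mb (horizontal axis), circles for the large and squares for the small subunit. MRPS25 lies at the lower left and MRPL23 at the upper right, and r is 0.60.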

How the data were processed

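RNA from 12 libraries was analysed, with groups and replicate numbers taken from the sample titles. Poly(A) RNA was selected, per the labels' protocols, and made into cDNA with a SMART kit. The submitters' processing notes name FastQC 0.11.5, Trimmomatic 0.36, HISAT2 2.1.0 and Subread 1.5.3. The authors counted reads with featureCounts 2.0.5, per the file headers, over exons of protein-coding GENCODE 33 genes (GRCh38). The deposited values are raw counts, not normalized, set beside each gene's exon length. Counting ignored strand and multi-mapping reads and took each read of a pair singly, per the file headers, so antisense and near-identical genes are uncertain and a fragment can add up to 2.

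The 6 libraries of a line were fitted together in edgeR 4.0.16 (R 4.3.3) after TMM scaling and filterByExpr (minimum count 10), with quasi-likelihood tests and Benjamini-Hochberg adjustment over all genes at 0.05. The difference between responses and the lines under DMSO came from 1 fit of 12 libraries. Standard errors were derived from the fold change and its F statistic, and CPM is on the TMM scale without a spike-in, so changes are relative. Exon length shared with any other gene was computed with GENCODE 44. Exon length shared with counted genes was computed with the annotation used for counting. The fits were tested on simulated counts with 200 changed genes. No 2 replicates differed by as little as sampling noise. For 1 listed marker the result is not reported here. The members and lists were chosen with earlier results of these data known. Members named with values were the 5 largest rises and falls per line among calls whose replicates did not overlap, up to 4 per direction for the difference and for DMSO, those called in both lines, the highest and lowest levels, and 4 of disputed placement. Other tools, scalings, filters, offsets and left-out libraries were tried as alternatives, of which the GC content offsets were added after seeing the data.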

Additional observations from a re-analysis of the deposited data

Results flagged for a closer look

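For 10 named members, of 12 called, the response to STM2457 differed between the lines by the test of the difference itself (edgeR's quasi-likelihood test, adjusted p under 0.05 over all genes), where 30.9% of all genes did. Lower in SK-N-BE2 than in NGP, on the log2 scale, were MRPS6 (-1.17), MRPL40 (-1.1), MRPL16 (-0.91), MRPL24 (-0.88), MRPS18B (-0.69) and MRPL30 (-0.6). Higher in SK-N-BE2 were MRPL36 (0.67), MRPL49 (0.67), MRPL35 (0.4) and MRPS25 (0.36). MRPS6 rose in both lines and MRPL35 rose in both, so their differences are of size and not of direction. Calls for MRPL36, MRPL35 and MRPS25 were each lost in at least 6 of 12 fits without 1 library. Dose, line and sequencing run cannot be told apart in these differences.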

How the results depend on the processing

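Of 46 results on named members, 33 kept their call in every alternative, and none of 906 alternatives turned a direction, while 76 lost the call. The members called in SK-N-BE2 numbered 18 in a joint fit of all 12 libraries (44.6% of all genes called) against 28 in its own fit (54.7%), and the members called in NGP numbered 30 with exon length offsets (18 higher, 12 lower; 48.2% of all genes called) against 18 (41.7%). Leaving out 1 library gave 19 to 37 members called in SK-N-BE2, 9 to 41 in NGP, 7 to 28 for the difference between lines (28 without DMSO replicate 1 of NGP) and 39 to 50 between lines under DMSO. The share of all genes called ran over the same fits from 45.7% to 55.3%, 27.7% to 57.3%, 24.8% to 42.0% and 66.5% to 74.1%. The members' median in NGP ran from -0.08 without DMSO replicate 2 to 0.19 without DMSO replicate 1. The replicate numbers did not pair the samples (same-number correlations of -0.0739 to 0.0874). With a replicate block, 28 members were called in SK-N-BE2 (53.7% of all genes), 18 in NGP (36.9%), 9 for the difference (27.3%) and 41 under DMSO (68.9%). The subunit difference stayed within its spread in every alternative, though its sign turned in both lines. The rise in the share of mitochondrially encoded RNA in NGP was 3.47 to 3.90 percentage points without 1 library, and the change in SK-N-BE2 was -1.69 to -0.24. Depth limits MRPS24, at about 1 CPM, and MRPL53.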

Other observations

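Of the 77 members, 17 (22.1%) have a gene on the opposite strand starting within 1000 bases, against 9.81% of all genes in the files. They form 16 distinct pairs, since MRPL46 and MRPS11 are each other's partner, and MRPL46 was taken as the member there. Over these pairs the response of the member and of its partner had a Pearson's r of 0.06 in NGP and -0.09 in SK-N-BE2, with the same sign in 7 and 8 pairs, a description across genes that share libraries. MRPL13 and MTBP start 2 bases apart, and MTBP rose in both lines (0.66 and 0.85) while MRPL13 had log2 fold changes of -0.03 and -0.25, neither called. MRPL46 and MRPS11, which start 63 bases apart and are both members, were called in neither line. These pairs were chosen after their values were seen.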
